A study of Mus musculus with 2 samples.

Results

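Toll-like receptors are the membrane receptors through which macrophages sense products of microbes, and 10 of their genes were followed in RAW264.7 cells given vehicle control or the small molecule IR-61. The genes were *Tlr1*, *Tlr2*, *Tlr3*, *Tlr4*, *Tlr6*, *Tlr7*, *Tlr8*, *Tlr9*, *Tlr11* and *Tlr13*, taken by name, with no threshold on their values, out of 20655 genes that could be named on the array. They were chosen with earlier results of these data known. All 10 were found, on 11 probes, because *Tlr7* has 2 probes and each of the others 1. RAW264.7 is an established mouse macrophage line that grew out of a tumor raised by Abelson murine leukemia virus in an adult male BALB/c mouse, so both groups are the same transformed line and not primary macrophages. The vehicle group was 1 culture kept for 24 h in medium with vehicle, and the IR-61 group was 1 culture kept for 24 h with IR-61, a lipophilic, positively charged near-infrared cyanine dye that gathers in mitochondria, at a dose that the text of the study puts at 10 μM. RNA of each culture went to its own Agilent 1-colour array. Since neither condition was repeated, the spread between cultures is unknown, and the conditions are set side by side without a test or p-value.

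Toll-like receptors are built from an outer domain of leucine-rich repeats that binds the ligand and an inner TIR domain that recruits adaptor proteins such as MyD88 and TRIF. These adaptors pass the signal through IRAK kinases and TRAF ubiquitin ligases to NF-κB and interferon regulatory factors, which switch on cytokine genes. TLR2, working in a pair with TLR1 or TLR6, reads bacterial lipopeptides at the cell surface, and TLR4 reads lipopolysaccharide there. TLR3, TLR7, TLR8, TLR9 and TLR13 sit in endosomes and read nucleic acids, and TLR11 reads profilin of parasites.

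The data showed a fall of *Tlr2* and *Tlr11* with IR-61 and no change as large as 2-fold in the other 8 receptors. *Tlr2* was 5.30-fold lower and *Tlr11* 5.46-fold lower in the IR-61-treated cells. The *Tlr11* value rests on 1 dim spot, and its log2 difference was only −1.20 with another background correction. In such bulk RNA, less message per cell and fewer cells that carry it cannot be told apart. The other 8 genes had log2 differences between −0.03 and 0.60, with *Tlr13* and *Tlr7* at the upper end. Thus 2 of the 10 receptors were lower by 2-fold or more, where 1.39% of the 16885 genes measured on both arrays were, and none was higher by 2-fold or more, where 2.0% of all measured genes were. Since the limit is a size and not a test, these shares have no error rate. The median log2 difference was 0.10 for the 10 receptors and 0.10 for all measured genes.

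Every value used here is a spot intensity from the scanner software. For each probe the 75th percentile of its array was taken off the log2 intensity, which is called the scaled log2 signal below, and a difference is always IR-61 minus vehicle on this scale. The IR-61 array was 1.40 times brighter than the vehicle array at that percentile, so a gene with equal scaled signal had a higher raw intensity with IR-61. A probe counted as measured where the software marked it as well above background on both arrays, and all 11 receptor probes passed this mark, so no receptor had only a bound. The error that can be measured is the one between spots of a probe on the same array. It comes from the probes printed 10 times and was 0.070 on the log2 scale with vehicle and 0.063 with IR-61 for log2 intensities over 10, 0.178 and 0.144 between 6 and 10, and 0.347 and 0.296 under 6. From it an expected SD of each difference was formed, which leaves out the spread between cultures. Probes differ in how well they bind, so the signal of a receptor is compared between the arrays and not with that of another receptor.

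**Figure D1:**
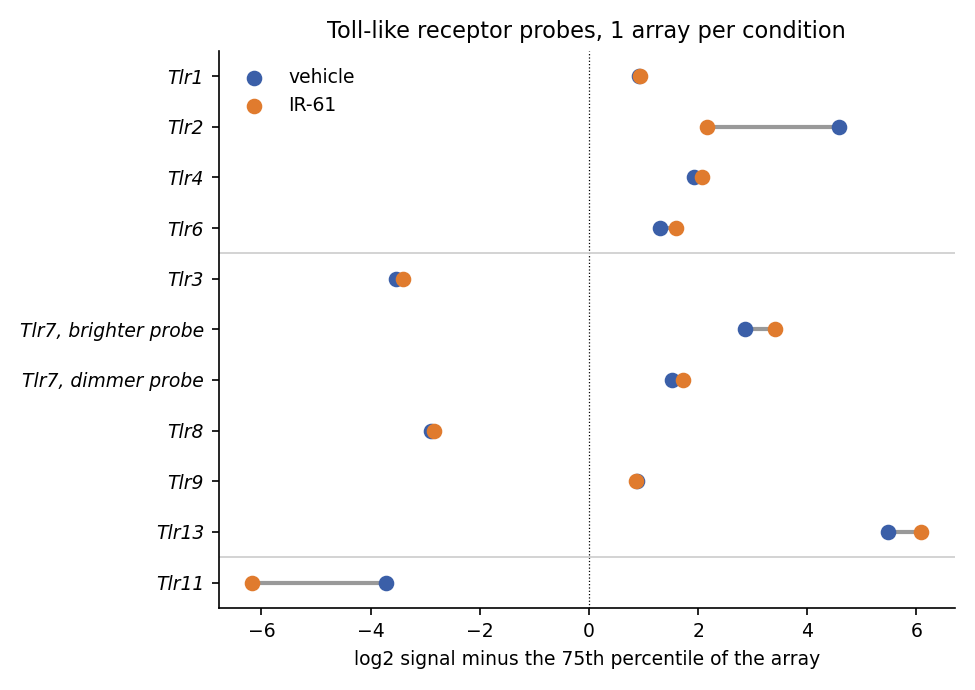
Scaled log2 signal (log2 intensity minus the 75th percentile of the array) of the 11 probes of the 10 Toll-like receptors, with 1 point per array, joined by a line. Receptors of the cell surface stand at the top, those for nucleic acids in the middle and *Tlr11* at the bottom, and only *Tlr2* and *Tlr11* have points far apart.

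*Tlr2* encodes the receptor for bacterial lipopeptides. Its probe had a geometric mean intensity of 30142 with vehicle and 7982 with IR-61. The probe is printed 10 times on each array, which no other receptor probe is. The 10 spots lay between 28193 and 31362 with vehicle, with a median of 30271, and between 7197 and 8480 with IR-61, with a median of 8067. The lowest vehicle spot was thus far above the highest IR-61 spot, although the IR-61 array was the brighter one. On the scaled log2 scale the mean ± SD between spots was 4.58 ± 0.05 with vehicle and 2.17 ± 0.07 with IR-61 (n = 10 spots each, of 1 culture each), a difference of −2.40 with an expected SD of 0.030. Ordered from the largest fall, *Tlr2* took rank 18 of 16885 measured genes. Among the 7505 genes with a mean log2 intensity over 10, *Tlr2* and 5 others made up the 6 with a difference at least as low.

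**Figure D2:**
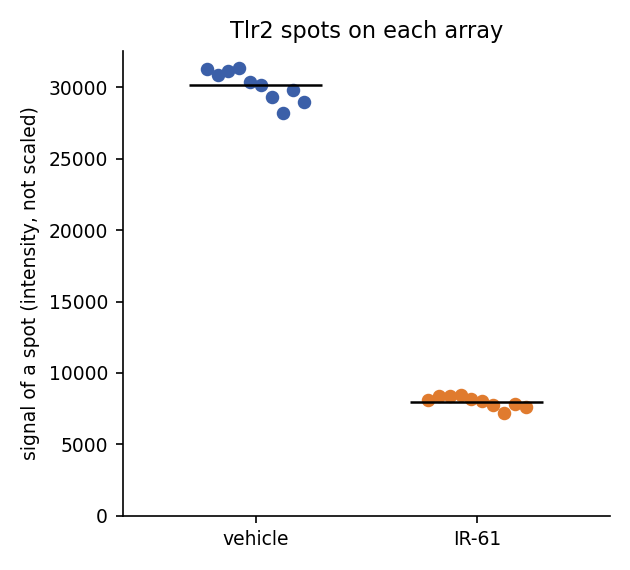
Intensity of each of the 10 *Tlr2* spots with vehicle and with IR-61, before any scaling, on a linear axis from 0. The lines mark the geometric means, 30142 and 7982, and the spots of the arrays do not overlap.

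*Tlr11* encodes a receptor for parasite profilin that signals from endosomes. Its single spot had an intensity of 95.8 with vehicle and 24.6 with IR-61. The vehicle value was 7.49 times the lowest intensity of any probe well above background on that array, and the IR-61 value only 1.64 times. Before background subtraction the spot read 136.5 with vehicle and 78.5 with IR-61, and the local background beside it read 19 and 20.5. On both arrays the gap between this reading and the intensity was larger than the local background. Such a gap is not background alone, as for *Tlr13* with vehicle the intensity, 56700, was above the reading, 52786. How much of the *Tlr11* fold comes from the software's processing of the spot was not tested. The scaled log2 signal was −3.72 with vehicle and −6.17 with IR-61, a difference of −2.45 with an expected SD of 0.345, and rank 16 from the largest fall. Of the 2872 genes with a mean log2 intensity under 6, 3 had a difference this low, *Tlr11* among them. With normexp correction, which starts from the median spot signal, models the background and adds an offset of 50 to every spot, the difference was −1.20, still past 2-fold.

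RefSeq promoter windows on GRCm38.p6 were at hand for 8 of the 10 receptors, all but *Tlr4* and *Tlr7*, and the 250 bases before the listed gene start were searched on both strands for an NF-κB motif GGGANTTNC, a PU.1 motif GAGGAAG, an AP-1 motif TGANTCA and an interferon-response motif GAAANNGAA. The letters were chosen after the sequences had been read. The NF-κB motif was found in the windows of *Tlr2* and *Tlr3*, and in 3.54% of all 32851 windows. The windows of *Tlr2* (chr3:83841609-83841858 on the minus strand), *Tlr3* (chr8:45410381-45410630 on the minus strand) and *Tlr11* (chr14:50357664-50357913 on the plus strand) are shown 5′ to 3′, the first and last as those of the receptors that fell and the second because it shares the NF-κB motif, with the matches in capitals:
Tlr2: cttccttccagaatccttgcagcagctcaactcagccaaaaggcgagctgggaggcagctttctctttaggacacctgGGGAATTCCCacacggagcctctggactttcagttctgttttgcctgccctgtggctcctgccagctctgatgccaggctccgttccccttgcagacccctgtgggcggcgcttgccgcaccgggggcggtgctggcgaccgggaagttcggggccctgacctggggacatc
Tlr3: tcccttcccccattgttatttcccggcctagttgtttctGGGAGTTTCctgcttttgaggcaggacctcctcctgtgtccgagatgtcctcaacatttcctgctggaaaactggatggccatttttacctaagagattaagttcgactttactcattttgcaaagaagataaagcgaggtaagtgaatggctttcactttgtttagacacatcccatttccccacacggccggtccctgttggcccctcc
Tlr11: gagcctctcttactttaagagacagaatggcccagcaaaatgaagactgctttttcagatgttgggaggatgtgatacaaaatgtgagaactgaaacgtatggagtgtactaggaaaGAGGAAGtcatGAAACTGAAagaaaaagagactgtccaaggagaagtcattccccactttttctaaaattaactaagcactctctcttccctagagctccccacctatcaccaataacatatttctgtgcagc

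The PU.1 motif was found for *Tlr1*, *Tlr9*, *Tlr11* and *Tlr13*, against 10.6% of all windows. The AP-1 motif was found for *Tlr9* (6.75% of all windows) and the interferon-response motif for *Tlr6*, *Tlr8* and *Tlr11* (7.13%). In *Tlr2* the NF-κB match began 172 bases before the listed start and read as a match on both strands, in *Tlr3* it began 211 bases before it, and in *Tlr11* the PU.1 and interferon-response matches began 133 and 122 bases before it. None of the 4 motifs was found in the windows of both *Tlr2* and *Tlr11*. A match in these windows is a description of the letters and not a binding site.

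The genes for the partners of TLR2 lay within 2-fold, unlike *Tlr2* itself. *Tlr1*, whose product pairs with TLR2 to read triacylated lipopeptides, had an intensity of 2397 with vehicle and 3405 with IR-61. *Tlr6*, the partner for diacylated lipopeptides, went from 3114 with vehicle to 5351 with IR-61. Both raw intensities were higher with IR-61, by 1.42 and 1.72 times, beside 1.40 times at the 75th percentile of the arrays. Against the median difference of all measured genes, *Tlr1* was 0.08 lower and *Tlr6* 0.19 higher on the log2 scale. The scaled log2 difference was 0.02 for *Tlr1*, under its expected SD of 0.094, and its sign turned under 6 of 12 other ways of processing. For *Tlr6* it was 0.29, which is 3.11 times the expected SD, and it stayed between 0.21 and 0.29 in all settings with scaling. That SD leaves out the spread between cultures, and 28.9% of the measured genes had a higher difference than *Tlr6*. *Tlr4*, the lipopolysaccharide receptor, read 4771 with vehicle and 7426 with IR-61, a scaled log2 difference of 0.15 that was 1.59 times the expected SD and 0.05 above the median of all measured genes. The 4 receptors of the cell surface thus held 1 gene past the 2-fold limit and 3 within it.

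The receptors for nucleic acids all lay within 2-fold. *Tlr13*, the receptor for bacterial ribosomal RNA, had the largest rise of the 10 genes, from an intensity of 56700 with vehicle to 120587 with IR-61. Its scaled log2 signal was 5.49 with vehicle and 6.09 with IR-61, a difference of 0.60 or 1.52-fold, which is 6.36 times the expected SD. It was the one receptor higher by 1.5-fold or more, where 9.82% of all measured genes were, and 90.8% of the measured genes had a difference at or below it. It did not reach 1.5-fold with scaling by the median (0.52), by detected probes (0.56) or by cyclic loess (0.57). At the same limit 5.67% of all measured genes were lower, and the receptors lower by 1.5-fold or more were again *Tlr2* and *Tlr11*.

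*Tlr7*, a receptor for single-stranded RNA, is read by 2 probes. The brighter probe went from 9158 with vehicle to 18862 with IR-61 and had a scaled log2 difference of 0.55. The dimmer probe went from 3622 to 5822 and had a difference of 0.20. Both were higher with IR-61, but the difference between the probes, 0.36, was larger than the SD of 0.134 expected between spots, so the size of the *Tlr7* change depends on the probe. *Tlr9*, the receptor for unmethylated CpG DNA, had intensities of 2325 and 3203, and its scaled log2 difference of −0.03 lay within the expected SD of 0.094 and turned positive, at 0.46, without scaling.

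*Tlr3*, the receptor for double-stranded RNA, was dim on both arrays, with an intensity of 109 with vehicle and 167 with IR-61. *Tlr8*, a relative of *Tlr7*, read 169 with vehicle and 249 with IR-61. Their scaled log2 differences of 0.14 and 0.07 were below the expected SD of 0.229, and with normexp background correction both turned negative, at −0.09 and −0.11, as *Tlr8* did with scaling by the median. A change of either gene was thus not detectable at this spread between spots.

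**Figure D3:**
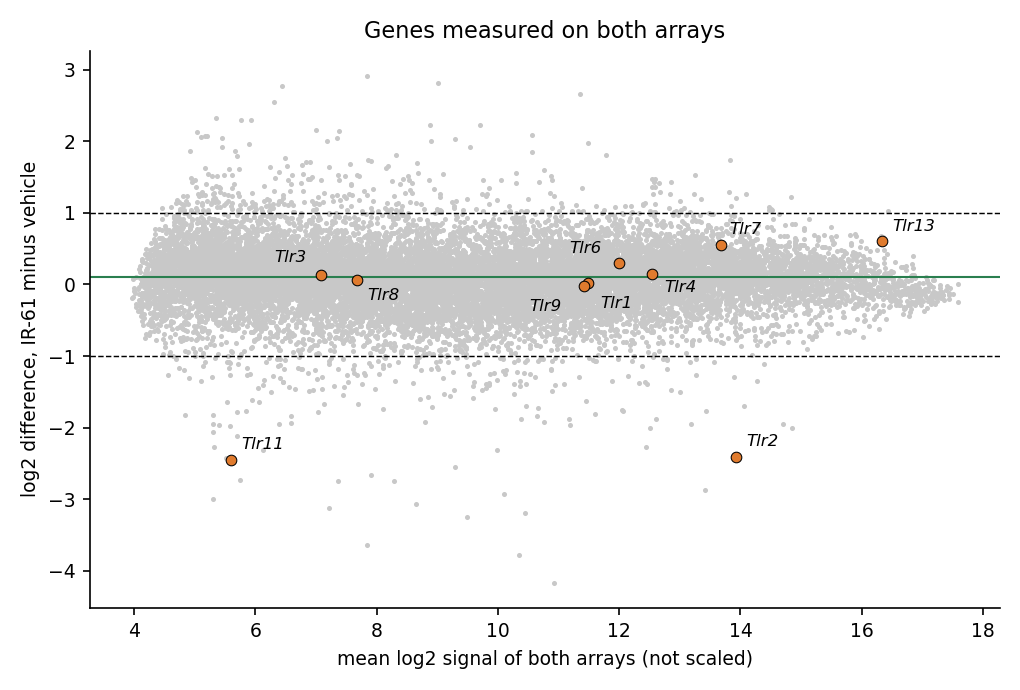
Log2 difference (IR-61 minus vehicle, 75th percentile scaling) against the mean log2 intensity of both arrays for the 16885 genes measured on both, in grey, with the 10 Toll-like receptors in orange. Dashed lines mark 2-fold and the green line the median of all genes, 0.10, and *Tlr2* and *Tlr11* are the receptors that lie below the lower dashed line.

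Set in order of their differences, the receptors ran from *Tlr11* and *Tlr2* at −2.45 and −2.40 through *Tlr9*, *Tlr1*, *Tlr8*, *Tlr3*, *Tlr4* and *Tlr6* to *Tlr7* and *Tlr13*. *Tlr11* and *Tlr2* differed by less than the expected SD of *Tlr11*. The 5 genes from *Tlr9* to *Tlr4* lay between −0.03 and 0.15, and neighbours among them did not differ beyond their expected SD, nor did *Tlr7* and *Tlr13*. Without *Tlr2* and *Tlr11*, which were left out after their values had been seen, the median of the 8 remaining genes was 0.14.

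The remaining mouse Toll-like receptor genes *Tlr5* and *Tlr12* were not in the list but are on the array. *Tlr5*, the flagellin receptor, read 23.6 with vehicle and 36.3 with IR-61, a scaled log2 difference of 0.13 within an expected SD of 0.456. *Tlr12*, which works with TLR11 in sensing profilin, read 31.0 with vehicle and 25.4 with IR-61, a difference of −0.77 that was 1.70 times the expected SD. The probes of both were under 3 times the lowest intensity well above background, and neither passed 2-fold.

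The sign of the difference turned in at least 1 alternative for *Tlr1*, *Tlr3*, *Tlr8* and *Tlr9* and in none for *Tlr4*, *Tlr6*, *Tlr7* and *Tlr13*, while *Tlr2* and *Tlr11* stayed lower by 2-fold or more wherever they were measured. Without scaling 8 of the 10 receptors were higher with IR-61, *Tlr13* and *Tlr7* by 2-fold or more at 1.09 and 1.04, but under that setting the median of all measured genes was 0.59 and 12.8% of them were higher by 2-fold or more. *Tlr2* lay between −2.49 and −1.92 and *Tlr11* between −2.65 and −1.20 over the settings that gave a value. In the log2 table that the authors deposited, *Tlr2* went from 15.24 with vehicle to 12.81 with IR-61 and *Tlr11* from 6.97 to 4.34. *Tlr13* went there from 16.12 to 16.75 and *Tlr4* from 12.61 to 12.71.

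**Figure D4:**
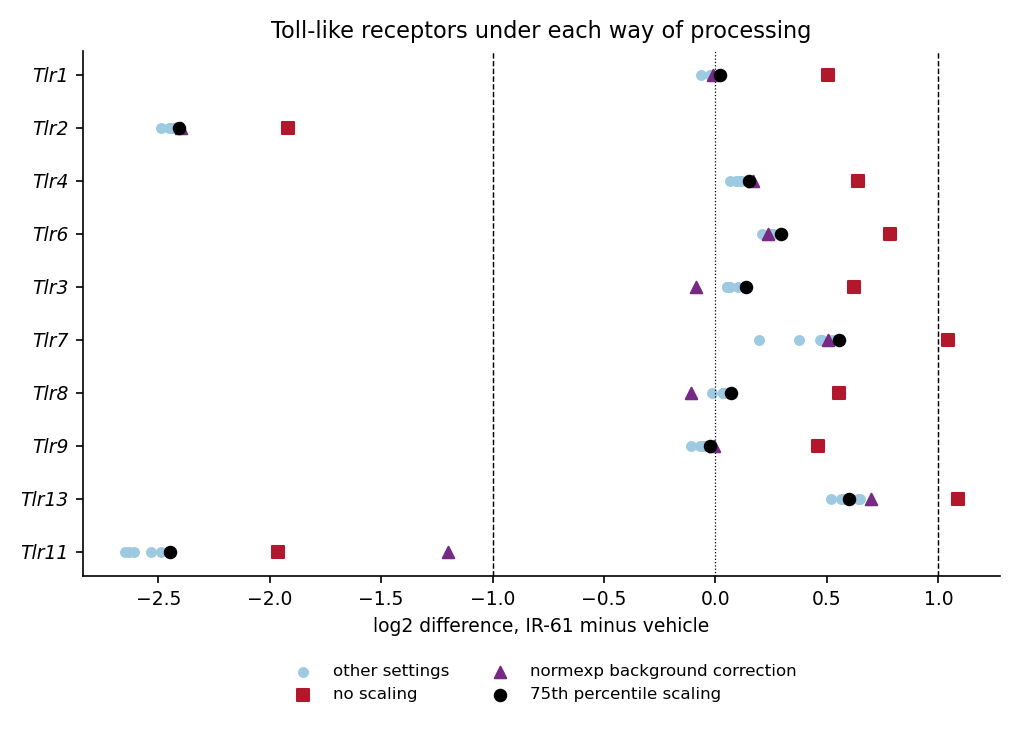
Log2 difference (IR-61 minus vehicle) of each Toll-like receptor under the scaling by the 75th percentile (black), without scaling (red squares), with normexp background correction (purple triangles) and under the other settings (light blue). *Tlr2* and *Tlr11* lie below the dashed line at −1 in every setting shown, and without scaling all receptors, these included, shift to the right by the same amount from the black points.

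The genes through which these receptors signal were taken as 5 lists of 55 genes in all, of which 54 were measured on both arrays. The lists were chosen with earlier results of these data known, so the shares below do not come from a blind choice. Of the 54, 5 (9.26%) were lower by 2-fold or more and none was higher, beside 1.39% and 2.0% of all measured genes, and their median was −0.25 beside 0.10. The count of lower genes ran from 2 without scaling, where *Ly86* and *Chuk* were higher by 2-fold or more and the median turned to 0.24, to 7 with scaling by the median, where *Cd14* and *Ticam2* joined, and 7 with the dimmest probe of each gene. *Cd14* was lower by 2-fold or more in 6 of the 12 alternatives. *Nfkbia* and *Relb* were lower by 2-fold or more under all 12 alternatives. The median of the 54 genes minus that of all measured genes was −0.35, and it was −0.20 with normexp correction and −0.29 with quantile normalization.

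Among co-receptors, chaperones and proteases, which help the receptors bind, fold and mature, 0 of 16 passed 2-fold, with a median of −0.02. *Cd14*, which hands lipopolysaccharide to TLR4, had the lowest difference there, −0.98, and *Ly86*, a partner of the TLR4 relative CD180, the highest, 0.57. *Ly96*, the MD-2 subunit of the TLR4 complex, was at 0.16, and *Unc93b1*, the carrier of the nucleic acid receptors to endosomes, at −0.40. Of the 6 TIR adaptors 5 were measured and none passed 2-fold, with *Ticam2*, the bridging adaptor of TLR4, at −0.93, *Myd88* at −0.63 and *Ticam1*, which encodes TRIF, at 0.42. *Sarm1* was not well above background on either array.

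Further down the pathway the kinases and ubiquitin ligases held 1 of 16 genes lower by 2-fold or more, *Ikbke*, an IKK-related kinase, at −1.08, and the median was −0.29. The highest was *Chuk*, which encodes IKKα, at 0.61. Of 9 inhibitors 1 passed the limit, *Nfkbia*, which encodes IκBα and is itself an NF-κB target, at −1.95, and *Otud7b* was the highest at 0.51. Of 8 transcription factors 3 passed it, *Relb* at −1.81, *Nfkb2* at −1.44 and *Irf5* at −1.01, while *Irf3* was the highest at 0.13. *Ikbke* and *Irf5* did not reach 2-fold with normexp correction or without scaling, nor did *Nfkb2* without scaling. Several genes of these lists have probes that disagreed, such as *Irak2*, with −0.39 for its brightest probe and −1.38 for the other, and *Nfkb1*, with −0.27 and −1.25.

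**Figure D5:**
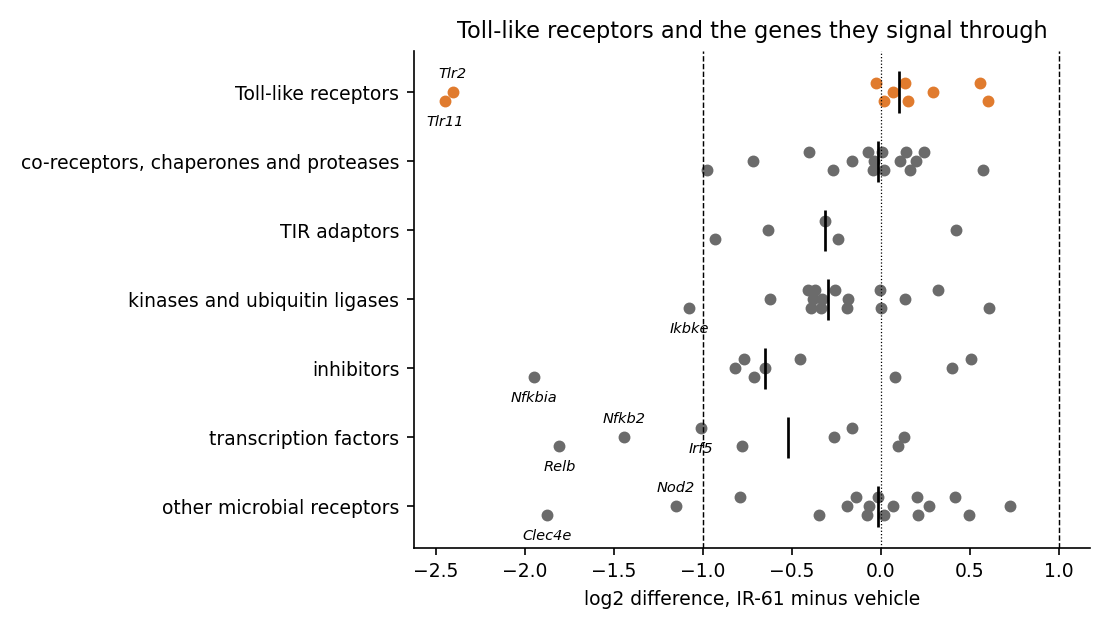
Log2 difference (IR-61 minus vehicle, 75th percentile scaling) of the Toll-like receptors in orange and, in grey, of the measured genes of the 5 pathway lists and of receptors of other families for microbial products, with a bar at each median. Genes lower by 2-fold or more are named, and *Tlr2* and *Tlr11* at −2.40 and −2.45 are the lowest points in the plot.

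Of the macrophage markers 8 of 9 were named on the array and all 8 were measured with vehicle and with IR-61, at intensities of 1002 to 95036 and 790 to 149992. *Adgre1*, a surface marker of mature macrophages, was higher with IR-61 by 1.03 on the scaled log2 scale, past 2-fold in this scaling. It did not reach 2-fold with scaling by the median or by detected probes. Nor did it with the mean or the dimmest of its 2 probes, the other of which was at 0.85. *Spi1*, which encodes PU.1, a factor of macrophage genes, was at −0.83. The summed unscaled intensity of the 4 fibroblast markers was 59579 with vehicle and 104499 with IR-61, that of the 4 T cell markers 2109 and 3060, that of the 4 B cell markers 870 and 679, that of 3 epithelial markers 252 and 256, that of 3 neutrophil markers 7171 and 11293, that of 3 mast cell markers 560 and 697, and that of 4 dendritic cell markers 50087 and 62659. These sums are not scaled, and the IR-61 array was 1.40 times brighter at its 75th percentile. Median scaled log2 differences were 0.21 for fibroblast, 0.04 for T cell, −0.59 for B cell and −0.46 for epithelial markers. They were 0.17 for neutrophil, 0.01 for mast cell and −0.17 for dendritic cell markers. With vehicle *Siglech* made up 49725 of the dendritic cell sum and *Elane* 7009 of the neutrophil sum. The *Siglech* value rests on 1 of its 2 probes, as the other was not well above background on both arrays. Of the summed genes *Ms4a1*, *Cd79b* and *Cpa3* were lower by 2-fold or more, and *Epcam* and *Xcr1* stayed under the mark for background on both arrays. *Ms4a1* and *Cd79b* did not reach 2-fold without scaling, nor did *Cd79b* and *Cpa3* with normexp correction. *Cpa3* also dropped out with a stricter filter on dim signals. The part of these markers in the receptor values was not tested. The 8 reference genes had differences between −0.48 for *Ywhaz* and 0.80 for *Hprt*, with a median of −0.13, a span that holds all receptors but *Tlr2* and *Tlr11*. Its upper end rests on *Hprt* alone, as the next reference gene, *Tbp*, was at 0.54, under *Tlr13* and *Tlr7*.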

How the data were processed

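RNA of 1 vehicle culture and 1 IR-61 culture of RAW264.7 cells (24 h) was read on 1 Agilent 1-colour array each, on the same slide and in the same scan. The deposited scanner files give spot intensity values that the software had background-subtracted within each array (Feature Extraction 11.0.1.1 per the file headers, 11.0.0.1 per the submitters' processing notes), with flags, as deposited, for outlier, saturated and above-background spots. A second file from the authors holds log2 values of both arrays, in columns that share their quantiles, whose making is not stated. It follows the log2 intensities of the arrays (Pearson r = 0.9995 and 0.9988 across probes).

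Outlier spots (124 and 139 of 44397) were left out, no spot was saturated, log2 intensities of a probe's spots were averaged, and each was lowered by the 75th percentile of its array (10.30 for vehicle, 10.79 for IR-61). Each gene was read from the brightest of its probes well above background on both arrays, as 77.6% and 81.2% of probes were on each. Probes were named by their transcript accession through a RefSeq gene table, 27234 of 39429. Genes count as lower or higher at 2-fold, without a test, since 1 array per condition limits the precision to the spread between spots. The text names every receptor probe, *Tlr5* and *Tlr12*, and of each list the genes past 2-fold and otherwise the largest fall and rise, with some further genes of the pathway and marker lists chosen after their values were seen. The receptors and gene lists were chosen with earlier results of these data known. The steps were tested on simulated data whose only noise was the spread between spots. That test does not cover the spread between cultures or errors of the background correction. Alternatives were scaling by the median, by detected probes, by quantiles, by cyclic loess (limma 3.58.1, R 4.3.3) or none, normexp correction with offset 50, the deposited log2 values, and other rules for outlier spots, probes and dim signals. Normexp used the median spot signal, as the files used here hold no mean signal, and 4 IR-61 spots whose background was above their signal were given the median background. Python 3.11.15, numpy 2.4.6 and pandas 2.3.3 were used. Coordinates of promoter windows are those of GRCm38.p6 and were not joined to the array.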

Additional observations from a re-analysis of the deposited data

How the results depend on the processing

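The 2 receptors lower by 2-fold or more were *Tlr2* and *Tlr11* under every alternative that measured both, and at limits of 1.5-fold and 3-fold. With a stricter filter, which asked for 4 times the lowest signal well above background, *Tlr11* dropped out and the count was 1. None was higher by 2-fold, except that the count was 2 without scaling (*Tlr7* and *Tlr13*), and it was 1 at a limit of 1.5-fold (*Tlr13*). The median of the receptors was 0.59 without scaling, when the median of all genes was also 0.59, and −0.0092 with normexp correction, which gave −1.20 for *Tlr11* and 0.70 for *Tlr13*. Relative to the median of all genes it stayed between 0.00 and 0.05 above it. The split of all measured genes into lower and higher by 2-fold moved with the scaling, from 235 and 337 to 295 and 248 with the median, 279 and 257 with quantiles, 279 and 242 with cyclic loess, 281 and 266 in the deposited log2 values, and 72 and 2156 without scaling. It was 149 and 124 with normexp correction, 440 and 922 with no filter on dim probes and 187 and 200 with the stricter one. The cause of these shifts was not tested. Dim probes limit *Tlr3*, *Tlr8* and *Tlr11*, and *Tlr2* is the one receptor with repeated spots. No paired analysis was possible because vehicle and IR-61 were each measured once.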

Other observations

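Receptors of other families that read microbial products were examined beside the Toll-like receptors, 18 genes of which 17 were named on the array and all 17 measured. With IR-61, 2 of them were lower by 2-fold or more and none was higher, beside 1.39% and 2.0% of all measured genes. Their median scaled log2 difference was −0.02, beside 0.10 for all measured genes. *Clec4e*, which encodes the Mincle receptor for mycobacterial glycolipids, was at −1.87, and *Nod2*, a cytosolic sensor of muramyl dipeptide, at −1.15, though *Nod2* did not reach 2-fold without scaling or with normexp correction. *Cgas*, the sensor of cytosolic DNA, had the highest difference, 0.72, but its 3 probes ran from −0.06 to 0.72.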
